A study of Mus musculus with 27 samples.

Results

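The genes of glycolysis, gluconeogenesis and lactate handling were followed in mouse kidney 24 h after ischemia of graded length. The set held 33 genes, listed by symbol and found by that symbol among the 19392 genes of the deposited table. The list was drawn up with earlier results of these data known. All 33 were found and all 33 passed the filter on low values, which left 18188 genes for testing. By role, 7 encode the irreversible glycolytic steps (Hk1, Hk2, Pfkl, Pfkm, Pfkp, Pkm and Pklr) and 4 the PFKFB regulators (Pfkfb1 to Pfkfb4). Another 11 encode the reversible steps that both directions share (Gpi1, Aldoa, Aldoc, Tpi1, Gapdh, Pgk1, Pgam1, Pgam2, Eno1, Eno2 and Eno3), and 4 make or carry lactate (Ldha, Ldhb, Slc16a1 and Slc16a3). The last 6 are gluconeogenic (Pck1, Pck2, Fbp1, Fbp2, G6pc and Slc37a4), beside Khk, which brings fructose into the pathway.

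The kidneys came from C57BL/6 mice in the uIRIx model, in which the left renal pedicle is clamped and the right kidney is removed. The ischemia time was 0, 16, 18, 20, 22, 24, 26, 28 or 30 min, and each time had 3 kidneys, 27 in all. The described procedure lists 0 min among the ischemia times and removes the right kidney. Read so, the 0 min controls, titled sham, also lost the right kidney, and every kidney measured was a sole remaining kidney. All animals lay on a 37°C warm plate during surgery. Expression was given as FPKM, a fragment count divided by transcript length and by the depth of the library. RNA came from kidney tissue of mixed cell types, so fewer cells of a type and less RNA per cell cannot be told apart in any value below.

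Glycolysis splits glucose into pyruvate, which lactate dehydrogenase can turn into lactate. Gluconeogenesis runs the same reversible steps backwards and bypasses the irreversible ones with its own enzymes, and the proximal tubule of the kidney cortex is, beside the liver, a site where glucose is made from lactate and other precursors. The proximal tubule is known to rely on fatty acid oxidation and to use little glucose, while the distal segments carry most of the kidney's glycolytic capacity.

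Some properties of the 27 kidneys touch the values below. The summed FPKM of the 8 proximal tubule markers was 2949 to 3485 at 0 min and 1900 to 3302 at 26 min. It was 1176 to 1306 at 28 min and 689 to 819 at 30 min. Most of this sum was Slc34a1, with a mean of 2226 FPKM at 0 min and 734 at 28 min. Slc5a2 alone had no lower mean at 28 min, with 129 FPKM against 126 at 0 min. The summed loop of Henle and distal tubule markers lay between 2139 and 2366 at 0 min and between 803 and 1125 at 28 min, and 1 kidney at 30 min, replicate 3, stood apart at 2895 against 818 and 849. Within the 16 min group, replicate 3 had 35.1 FPKM of the injury gene Havcr1 where the other kidneys had 332 and 574, and within the 0 min group replicate 3 had 22.0 FPKM where the others had 2.81 and 2.49. The skeletal muscle markers summed to at most 1.33 FPKM in any kidney, which bears on Pgam2, Fbp2 and Eno3, genes also abundant in muscle.

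The test throughout was limma on quantile-normalized log2(FPKM + 1), with 1 mean for each ischemia time and Benjamini-Hochberg adjustment over the 18188 genes. A gene was said to rise or fall where its adjusted p was under 0.05, and was called a DEG where it also changed more than 2-fold, that is by more than 1 on the log2 scale. Fold changes on this scale understate the change of genes near or under 1 FPKM. The 8 comparisons with 0 min share the same 3 control kidneys, so their counts are not independent of each other.

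The set held genes that rose and genes that fell, also within most roles. Over the 9 ischemia times 28 of the 33 genes varied (F test over the contrasts with 0 min), where 55.1% of all genes did. Those that did not pass were Hk1, Pfkp, Pfkfb2, Pfkfb3 and Pck1, with adjusted p from 0.0844 to 0.695. At 16 min, 11 genes rose and 2 fell against 0 min, beside 9.43% and 9.61% of all genes. These 13 were 8 without replicate 2 of the 0 min group, and none passed when the compared groups were fitted alone. The share of all genes in those fits is not given here, so the drop is not shown to be particular to the set. From 18 to 24 min, 13 to 17 genes passed, where 27.8%, 22.8%, 28.8% and 28.3% of all genes passed at 18, 20, 22 and 24 min. None of the 33 was a DEG at these 5 times, by the 2-fold limit, where 2.25%, 3.06%, 2.51%, 3.29% and 3.12% of all genes were at 16, 18, 20, 22 and 24 min.

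At 26 min 12 genes rose and 3 fell against 0 min (14.9% and 15.2% of all genes). At 28 min 14 rose and 10 fell (24.5% and 23.6% of all genes), and at 30 min 14 rose and 11 fell (26.9% and 25.4%). DEGs appeared from 26 min, when Aldoc and Fbp1 fell beyond the limit (1.61% of all genes did). Neither was a DEG at 26 min without quantile normalization or without replicate 3 of the 26 min group, when Fbp1 changed by -0.92 and -0.86 on the log2 scale. Leaving out any other kidney of the 0 or 26 min group left 1 DEG, Fbp1. At 28 min and again at 30 min the 2 DEGs that rose were Hk2 and Fbp2 and the 6 that fell were Aldoc, Pgam2, Fbp1, G6pc, Slc37a4 and Khk, where 4.27% and 4.21% of all genes were DEGs that rose and fell at 28 min, and 5.14% and 5.59% at 30 min. The median log2 fold change at 28 min was 0.34 over the 11 shared reversible steps and -0.64 over the 6 gluconeogenic genes, beside 0.00 over all genes tested. The gluconeogenic median covers both directions: Fbp1, G6pc and Slc37a4 fell, Fbp2 and Pck2 rose, and Pck1 was not called.

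**Figure D1:**
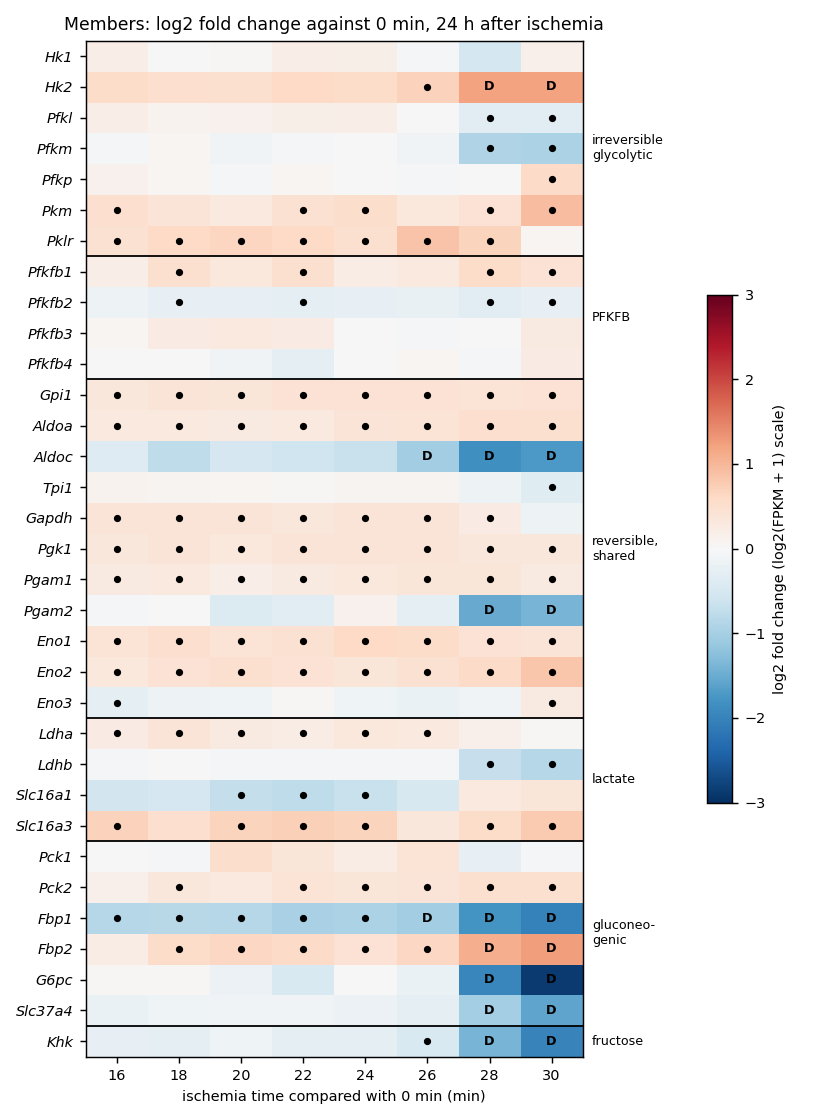
Log2 fold change of each of the 33 genes (rows, ordered by role) against 0 min at each of 8 ischemia times (columns), with n = 3 kidneys a time. A dot marks an adjusted p under 0.05 and D marks a DEG. The shared reversible steps are mostly red from 16 min on, and the blue D cells gather at 28 and 30 min, where 6 genes fell by more than 2-fold.

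The steps between groups showed where the changes lay. From 16 to 26 min no gene of the set passed the limma test (0% of all genes did), and 3 of the 33 had an unadjusted p under 0.05. No alternative setting gave a call there either. From 26 to 28 min 2 genes rose, Slc16a1 and Fbp2, and 8 fell, Pfkm, Tpi1, Pgam2, Ldhb, Fbp1, G6pc, Slc37a4 and Khk (10.8% and 8.52% of all genes). The count was 6 in place of 10 without replicate 2 of the 26 min group. From 28 to 30 min Pfkp and Eno3 rose and Pklr, Gapdh, Slc37a4 and Khk fell (6.47% and 6.77% of all genes). The split was 1 up and 6 down without quantile normalization, and without replicate 3 of the 30 min group 3 genes passed in place of 6, while without replicate 1 of that group 11 did.

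Among the shared reversible steps, 7 of 11 rose at 16 min and 7 of 11 at 28 min, beside 9.43% and 24.5% of all genes. The sign was the same at all 8 times for Gpi1, Aldoa, Pgk1, Pgam1, Eno1 and Eno2, which passed at every one of the 8 times. Gpi1, which interconverts glucose 6-phosphate and fructose 6-phosphate, had 200, 186 and 204 FPKM at 0 min. Every kidney after ischemia lay above all of these, between 235 and 275 FPKM, and the log2 fold change ran from 0.34 to 0.44. Eno1, the enolase of most tissues, had 500, 436 and 463 FPKM at 0 min and 781, 805 and 800 at 24 min. The 2 groups did not overlap, and Eno1 rose by 0.60 on the log2 scale (SE 0.06, adjusted p 1.15e-06 by limma).

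Aldoa, the aldolase of muscle and many other cells, rose by 0.26 to 0.50 on the log2 scale, from a mean of 759 FPKM at 0 min to 1118 at 28 min and 1138 at 30 min. Pgk1, phosphoglycerate kinase, rose by 0.31 to 0.39 and Pgam1, the widely expressed phosphoglycerate mutase, by 0.20 to 0.37. Eno2, the enolase best known from neurons, was low, at 0.777 ± 0.0379 FPKM (SD, n = 3) at 0 min and 2.41 ± 0.345 at 30 min, and rose by 0.83 (adjusted p 1.63e-06 by limma). Over the 27 kidneys, Aldoa held rank 41, Eno1 rank 77 and Eno2 rank 11529 among all genes by mean FPKM.

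Gapdh, glyceraldehyde 3-phosphate dehydrogenase, stood at rank 7 of all genes. It had 2397, 2155 and 2227 FPKM at 0 min, 3039, 3220 and 3127 at 28 min and 3040, 3092 and 2878 at 30 min. All kidneys at 28 and 30 min lay above all those at 0 min. Quantile normalization gives a gene the same value wherever it holds the same rank, and in that fit Gapdh rose by 0.34 to 0.39 on the log2 scale at 16 to 26 min and by 0.25 at 28 min, with -0.15 at 30 min (adjusted p 0.0791 by limma). Without quantile normalization it rose at 30 min too, by 0.41 (adjusted p 3.01e-05 by limma), and its fall from 28 to 30 min was no longer called, at -0.06. The direction of Gapdh at 30 min therefore depends on the scaling.

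The other shared steps changed less evenly. Tpi1, triosephosphate isomerase, had 400 to 415 FPKM at 0 min, 451 to 510 in all kidneys from 16 to 26 min and 306 to 389 at 30 min, so the early kidneys all lay above the controls and the 30 min kidneys all below. From 16 to 26 min it was not called with quantile normalization and was called higher at all 6 times under both other scalings, by 0.19 to 0.28 on the log2 scale. At 30 min it fell by 0.37 (adjusted p 0.000196 by limma). Eno3, the enolase of muscle, was lower at 16 min (-0.27) and higher at 30 min (0.26), and the first call was lost without quantile normalization. Aldoc, the aldolase of brain, had 8.76, 6.36 and 7.09 FPKM at 0 min, 1.53, 1.99 and 1 at 28 min and 1.18, 1.02 and 3.46 at 30 min. It fell by 1.83 at 28 min (SE 0.38, adjusted p 0.000423 by limma) with no overlap, and its call at 26 min (-1.05, adjusted p 0.039) was lost when any 1 kidney of the compared groups was left out. At 8 of the 9 ischemia times, the kidney with the most Aldoc also had the highest sum of loop of Henle and distal markers. This match was sought after the values were seen, and the share of that sum in the fall of Aldoc was not tested.

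Pgam2, the muscle form of phosphoglycerate mutase, lies on chromosome 11 from 5801637 to 5803796 (GRCm38). It had 74.0, 63.7 and 66.5 FPKM at 0 min, 74.4, 79.6 and 34.2 at 26 min, 25.5, 27.3 and 22.1 at 28 min and 22.7, 24.5 and 32.9 at 30 min. Every kidney at 28 and 30 min lay below every kidney at 0 min, and replicate 3 of the 26 min group was between them and the rest of its group. Pgam2 fell by 1.52 on the log2 scale at 28 min (SE 0.27, adjusted p 0.000112 by limma) and by 1.24 from 26 to 28 min (adjusted p 0.00354). The muscle markers Ckm and Myh4 reached at most 0.13 and 0.01 FPKM in any kidney. Acta1 and Mb of the same list reached 0.7 and 0.51 FPKM, both in kidneys at 30 min. The part of muscle RNA in the Pgam2 values was not tested.

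No stretch of 50 bases of the longest coding Pgam2 transcript recurs in the transcript of another gene in GENCODE vM21, so its reads can be told from those of Pgam1. The study's primer pair for Pgam2 is shown because the study measured this gene with it by qPCR. The bases that differ from Pgam1 are counted here and not marked. The pair spans 278 of the 840 bases of the transcript, and its best alignments to Pgam1 hold 3 mismatches for the forward and 7 for the reverse primer.
Pgam2 forward primer: aggtgaagatctggaggcgt
Pgam2 reverse primer: ctggtcggacatcccttcca

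For other genes the reads of processed copies may be split. In GENCODE vM21, 82.5% of the 50-base stretches of Gapdh recur in transcripts of other genes, as do 72.2% of those of Eno1, 68.0% of Pgk1, 41.5% of Pgam1, 34.4% of Pkm and 27% of Ldhb. How the authors' counting shared such reads is not given in the sources used here, so the levels of these genes are less certain than those of Fbp1, Fbp2, G6pc, Slc37a4, Khk and Pgam2, for which the share was 0.

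**Figure D2:**
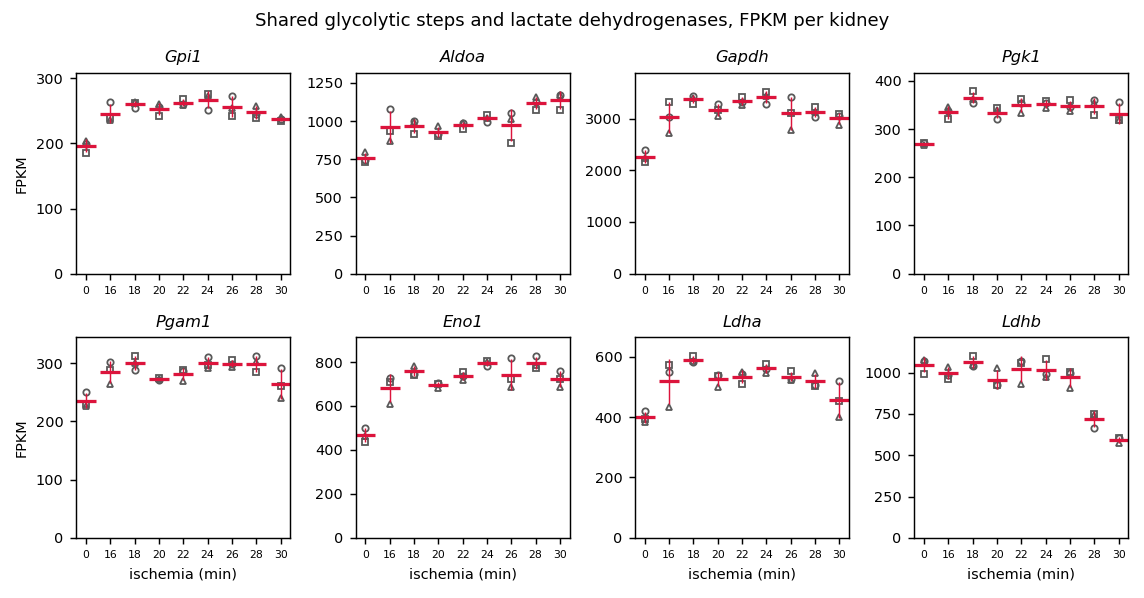
FPKM (vertical axes, from 0) of Gpi1, Aldoa, Gapdh, Pgk1, Pgam1, Eno1, Ldha and Ldhb at each ischemia time in min. Open symbols are the 3 kidneys of a group, red bars the mean and thin red lines the SD. Gpi1, Aldoa, Gapdh, Pgk1 and Eno1 lie above the 0 min kidneys in every kidney after ischemia, and Ldhb drops between 26 and 28 min, from 906 to 1006 FPKM to 662 to 748 FPKM. Of all genes tested, 28.1% at 16 min and 56.9% at 28 min had no overlap with 0 min, counting both directions.

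The irreversible glycolytic steps had members in both directions, with 3 of 7 higher and 2 lower at 28 min (24.5% and 23.6% of all genes) and again at 30 min (26.9% and 25.4%). These counts of few genes were not tested against the shares of all genes. Hk2, the inducible hexokinase, had 0.10, 0.09 and 0.31 FPKM at 0 min, 1.51, 1.8 and 1.78 at 28 min and 1.87, 1.57 and 1.64 at 30 min. All 6 kidneys at 28 and 30 min lay above those at 0 min, while at 16 min the kidneys spread from 0.12 to 2.06. Hk2 rose by 1.2 on the log2 scale at 28 min (SE 0.22, adjusted p 0.00017 by limma) and by 1.2 at 30 min. Hk1, the housekeeping hexokinase, passed at none of the 8 times and ranged from 33.04 to 79.6 FPKM, so that Hk2 made up only 4.60% of the summed Hk1 and Hk2 FPKM at 28 min, against 0.347% at 0 min.

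The phosphofructokinases catalyse the committed step of glycolysis. Pfkm, the muscle form, had 21.5, 19.3 and 19.3 FPKM at 0 min, 22.0, 22.0 and 16.4 at 26 min and 12.02, 11.8 and 9.86 at 28 min. The 28 min kidneys lay below all others of these groups, and Pfkm fell by 0.80 on the log2 scale from 26 to 28 min (SE 0.14, adjusted p 0.0005 by limma). Pfkp, the platelet form, had 25.6, 23.9 and 24.6 FPKM at 28 min and 35.0, 27.7 and 45.9 at 30 min, and rose by 0.58 at 30 min against 0 min (adjusted p 0.0098). Its highest value came from replicate 3 of the 30 min group, the kidney with the high distal marker sum, and its call from 28 to 30 min (0.59) was lost without quantile normalization. Pfkl, the liver form, was lower by 0.34 at 28 and 30 min, calls that were lost without quantile normalization.

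The pyruvate kinases close the pathway. Pklr, the liver and red cell form, had 11.6, 11.03 and 12.4 FPKM at 0 min, 23.9, 26.3 and 21.8 at 26 min and 13.5, 16.1 and 11.04 at 30 min. It rose at all 7 times from 16 to 28 min, most at 26 min (0.86, SE 0.14, adjusted p 0.000142 by limma), then fell by 0.60 from 28 to 30 min (adjusted p 0.00792), and at 30 min it was 0.07 from its control level (adjusted p 0.725). Pkm, the form of most other cells, had 189, 136 and 161 FPKM at 0 min and 269, 242 and 340 at 30 min, and rose by 0.92 (SE 0.16, adjusted p 8.33e-05). Its call at 28 min (0.43) was lost without quantile normalization (0.35, adjusted p 0.0815 by limma). For Hk1, Pfkl and Pkm, the kidney with the highest level was also the one with the highest loop and distal marker sum at 9 of 9 ischemia times, a match sought after the values were seen.

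The PFKFB enzymes set the level of fructose 2,6-bisphosphate, which stimulates phosphofructokinase and inhibits fructose bisphosphatase. All were low, from 0.61 to 9.12 FPKM over the 27 kidneys. Pfkfb1, the liver form, rose by 0.55 on the log2 scale at 28 min and by 0.43 at 30 min. Pfkfb2 was lower by 0.31 and 0.26 at these times, calls that were lost under both other scalings. Pfkfb3, the inducible form with high kinase activity, passed at none of the 8 times and ranged from 3.43 to 9.12 FPKM (F test adjusted p 0.695). Pfkfb4 ranged from 2.17 to 4.51 FPKM and passed at none of the 8 times either.

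Of the lactate genes, the 2 dehydrogenase subunits parted. Ldha, the subunit that favours lactate formation, had 420, 394 and 384 FPKM at 0 min, 581, 604 and 586 at 18 min and 519, 453 and 401 at 30 min. It rose at the 6 times from 16 to 26 min, by 0.23 to 0.39 on the log2 scale, and its difference at 30 min was 0.04 (adjusted p 0.643 by limma), or 0.19 with FPKM rescaled to TPM (adjusted p 0.0409). At 28 min it was 0.15 (adjusted p 0.0544), and without quantile normalization 0.38, a call. Ldhb, the subunit that favours lactate oxidation, had 1073, 995 and 1079 FPKM at 0 min, 1001, 1006 and 906 at 26 min, 662, 748 and 745 at 28 min and 603, 604 and 574 at 30 min. The groups up to 26 min overlapped and those at 28 and 30 min lay wholly below them, with a fall of 0.70 at 28 min (SE 0.07, adjusted p 2.08e-07) and 0.65 from 26 to 28 min (adjusted p 1.74e-05).

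The lactate carriers moved less evenly. Slc16a1 (MCT1), a monocarboxylate carrier, had 14.1, 10.3 and 10.6 FPKM at 0 min, 7.95, 6.75 and 6.14 at 22 min, 7.76, 10.4 and 8.52 at 26 min and 17.1, 14.9 and 16.2 at 28 min. It was lower than at 0 min at 20, 22 and 24 min (-0.71, -0.77 and -0.67, the last call lost without quantile normalization) and rose by 0.77 from 26 to 28 min (SE 0.22, adjusted p 0.0189 by limma), with no overlap between these groups. Slc16a3 (MCT4), the carrier of glycolytic cells, was low, at 0.62, 0.38 and 0.59 FPKM at 0 min and 2.17, 1.47 and 1.62 at 30 min, and rose by 0.55 to 0.78 at 6 of the 8 times.

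The gluconeogenic genes held the largest falls of the set. Fbp1, fructose 1,6-bisphosphatase, which opposes phosphofructokinase, had 609, 669 and 595 FPKM at 0 min and 298, 318 and 495 at 16 min. It had 366, 393 and 249 at 26 min, 198, 190 and 175 at 28 min and 184, 172 and 112 at 30 min. All kidneys after ischemia lay below those at 0 min, and all at 28 and 30 min lay below those at 26 min. Fbp1 fell at every one of the 8 times, by 0.86 on the log2 scale at 16 min (SE 0.20, adjusted p 0.0062 by limma), 1.04 at 26 min, 1.79 at 28 min (adjusted p 6.12e-07) and 2.03 at 30 min, and it fell by 0.75 from 26 to 28 min (adjusted p 0.0136).

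Fbp2, the muscle form of the same enzyme, ran the other way. It had 15.5, 16.6 and 20.5 FPKM at 0 min, 31.6, 26.5 and 30.2 at 26 min, 46.4, 39.5 and 39.3 at 28 min and 49.6, 52.9 and 34.8 at 30 min. The 28 min kidneys lay above all those at 26 min, which lay above all those at 0 min. Fbp2 rose by 1.1 at 28 min (SE 0.12, adjusted p 5.25e-07 by limma) and by 1.26 at 30 min, and by 0.47 from 26 to 28 min (adjusted p 0.0107). Fbp2 thus went from 2.74% ± 0.511 (SD, n = 3) of the summed Fbp1 and Fbp2 FPKM at 0 min to 8.37% ± 2.27 at 26 min, 18.2% ± 0.886 at 28 min and 22.8% ± 1.37 at 30 min.

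Fbp1 (chromosome 13, 62864753 to 62888298) and Fbp2 (62836884 to 62858400) are neighbours on the minus strand, 6352 bases apart in GRCm38. Their promoters are shown because the pair moved in opposite directions, and that of G6pc for the largest fall. Each run is the 250 bases before an annotated start, from RefSeq, GRCm38.p6, 5′ to 3′ on the strand of the gene. Capitals mark CACGTG, an E-box, in Fbp2 and GTTAAT, a part of the HNF1 motif, in G6pc, and the Fbp1 window holds neither in either orientation, nor ACGTG, the core of the hypoxia response element.
Fbp1, chr13:62888283-62888532, minus strand: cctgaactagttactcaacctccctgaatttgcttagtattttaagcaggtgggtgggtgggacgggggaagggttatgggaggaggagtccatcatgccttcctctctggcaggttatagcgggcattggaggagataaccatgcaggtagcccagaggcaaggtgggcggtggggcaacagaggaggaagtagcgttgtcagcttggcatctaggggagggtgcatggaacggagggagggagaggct
Fbp2, chr13:62858401-62858650, minus strand: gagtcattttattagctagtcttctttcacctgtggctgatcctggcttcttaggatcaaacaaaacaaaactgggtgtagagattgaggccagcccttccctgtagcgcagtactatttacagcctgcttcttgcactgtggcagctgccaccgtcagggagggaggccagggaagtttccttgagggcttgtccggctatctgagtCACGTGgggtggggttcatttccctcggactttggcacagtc
G6pc, chr11:101367466-101367715, plus strand: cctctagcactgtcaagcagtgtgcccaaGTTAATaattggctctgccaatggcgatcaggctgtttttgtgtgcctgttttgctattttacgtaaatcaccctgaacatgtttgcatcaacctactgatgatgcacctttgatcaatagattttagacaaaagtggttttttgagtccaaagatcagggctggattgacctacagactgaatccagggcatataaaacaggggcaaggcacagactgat

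All 33 genes matched the RefSeq promoter table, with 53 windows. On both strands, ACGTG was in 17 windows (32.1%) beside 16.6% of all 32851 windows of this length, CACGTG, which contains ACGTG, in 7 (13.2% beside 6.02%), and GTTAAT in 4 (7.55% beside 6.43%). A match describes letters only, and the absence of one says only that those letters are not in the window.

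G6pc, the catalytic subunit of glucose 6-phosphatase, which releases free glucose, had 182, 152 and 79.6 FPKM at 0 min, 81.8, 86.9 and 323 at 16 min and 115, 188 and 69.2 at 26 min. It had 46.3, 29.9 and 27.6 at 28 min and 22.0, 12.9 and 17.2 at 30 min. Kidneys up to 26 min spread widely, the highest of all 27 being replicate 3 of the 16 min group, and those at 28 and 30 min lay below them all. G6pc fell by 1.96 on the log2 scale at 28 min (SE 0.46, adjusted p 0.0015 by limma), by 2.86 at 30 min (adjusted p 2.66e-05) and by 1.77 from 26 to 28 min (adjusted p 0.011). The last call was lost without replicate 2 of the 26 min group (-1.4, adjusted p 0.0754).

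Slc37a4, the carrier that brings glucose 6-phosphate to that enzyme, had 102, 96.8 and 91.6 FPKM at 0 min, 84.2, 99.4 and 60.7 at 26 min, 48.5, 45.9 and 49.3 at 28 min and 33.8, 32.4 and 29.5 at 30 min. The 28 min kidneys lay below all at 26 min and the 30 min kidneys below all at 28 min. Slc37a4 fell by 1.03 at 28 min (SE 0.16, adjusted p 3.02e-05 by limma), by 1.58 at 30 min, by 0.73 from 26 to 28 min and by 0.55 from 28 to 30 min (adjusted p 0.0312). Its fall at 28 min lay at the 2-fold limit.

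The phosphoenolpyruvate carboxykinases did not share these falls. Pck1, the cytosolic form and the classic rate-setting enzyme of renal gluconeogenesis, ranged from 275 to 1055 FPKM over the 27 kidneys and passed in no comparison (F test adjusted p 0.646). Its spread within a group was wide: at 30 min the kidneys had 351, 985 and 275 FPKM. Pck2, the mitochondrial form, rose from 6.29 ± 0.696 FPKM (SD, n = 3) at 0 min to 10.3 ± 0.842 at 28 min, a log2 change of 0.49, and passed at 6 of the 8 times.

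Khk, ketohexokinase, which phosphorylates fructose in the proximal tubule, had 327, 293 and 272 FPKM at 0 min, 255, 236 and 171 at 26 min, 105, 116 and 121 at 28 min and 76.4, 76.7 and 63.2 at 30 min. Each of these groups lay wholly below the one before. Khk fell by 0.47 at 26 min (adjusted p 0.00828 by limma), 1.4 at 28 min (SE 0.13, adjusted p 4.27e-08) and 2.01 at 30 min (adjusted p 1.83e-10), and by 0.61 from 28 to 30 min (adjusted p 0.00405).

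Markers of several cell types also changed over these ischemia times. Of the 8 proximal tubule markers, 5 fell at 28 min and 7 at 30 min (23.6% and 25.4% of all genes). The medians of the 8 were -1.21 and -2.11 on the log2 scale. At 8 of the 9 ischemia times the kidney with the most Slc37a4 was the one with the highest proximal sum. This held at 6 times for Fbp1, G6pc and Pgam2 and at 4 for Khk. It was not limited to genes that fell. The same match held at 7 times for Pgk1 and at 6 for Slc16a3, which both rose, and at 6 for Pfkm and Ldhb. Hk1, Pkm, Gapdh and Eno1 matched at 4 times, as Khk did. These matches, too, were sought after the values were seen. The summed neutrophil markers were 3.06 to 9.97 FPKM at 0 min and 20.2 to 27.5 at 30 min. S100a8, S100a9, Csf3r and Retnlg of that list had higher means at 30 min than at 0 min. The mean of Ly6g, also of that list, was 0.383 FPKM at 0 min and 0.227 at 30 min. The summed red cell markers were 123 to 645 FPKM at 0 min and 796 to 1470 at 30 min. The part of these cells in the falls and rises of the set was not tested.

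**Figure D3:**
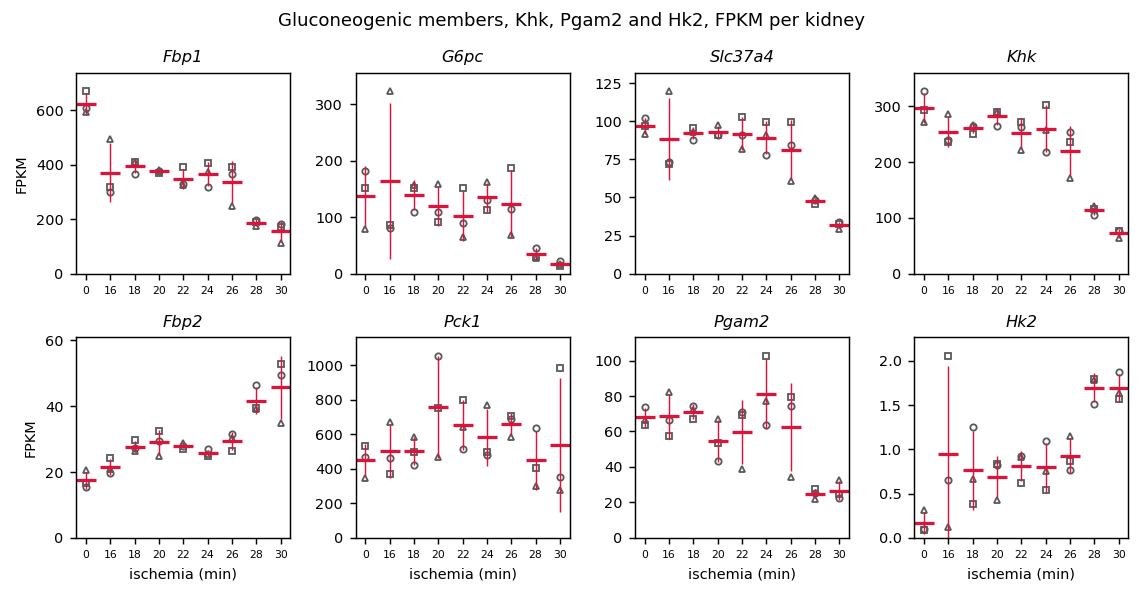
FPKM (vertical axes, from 0) of Fbp1, G6pc, Slc37a4, Khk, Fbp2, Pck1, Pgam2 and Hk2 at each ischemia time in min. Open symbols are the 3 kidneys of a group, red bars the mean and thin red lines the SD. By their means, Fbp1, G6pc, Slc37a4, Khk and Pgam2 are lowest at 28 and 30 min, Fbp2 and Hk2 highest, and Pck1 spreads from 275 to 1055 FPKM.

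The isoenzyme shares give the same data as proportions within a kidney, where normalization between kidneys plays no part. Ldhb made up 72.4% ± 1.15 (SD, n = 3) of the summed Ldha and Ldhb FPKM in the control group, 64.5% ± 1.08 after 26 min of ischemia, 58.0% ± 1.58 after 28 min and 56.6% ± 2.58 after 30 min. Pfkm went from 31.5% ± 1.87 of the summed phosphofructokinases at 0 min to 20.8% ± 1.51 at 28 min and 16.8% ± 1.87 at 30 min, while Pfkp went from 35.4% ± 1.76 to 45.9% ± 1.86 and 55.7% ± 3.80. Pgam2 went from 22.4% ± 0.622 of the mutases to 7.73% ± 0.965 at 28 min and 9.29% ± 2.49 at 30 min. For the shares of Fbp2, Ldhb, Pfkm, Pfkp and Pgam2, the 3 kidneys at 28 min lay outside the range of the 3 at 26 min, and for Pfkl they lay within it. The shares are given as a description, with no test.

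**Figure D4:**
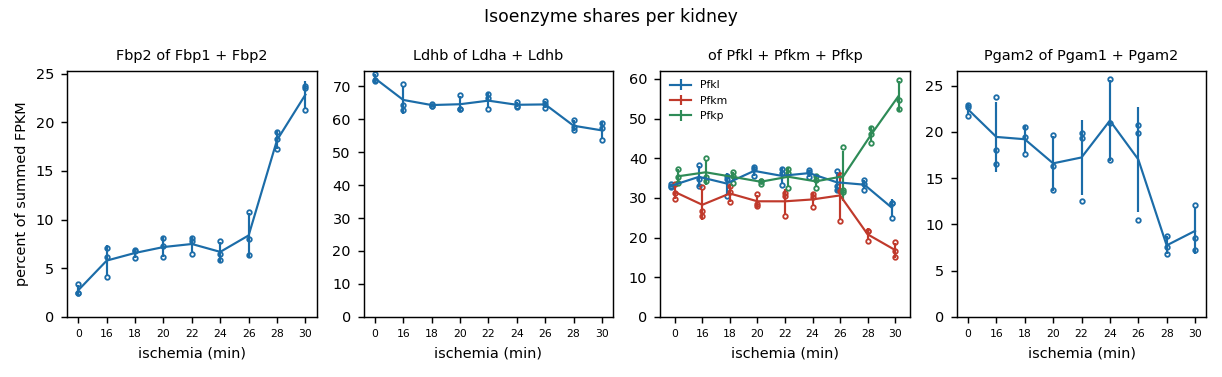
Percent of the summed FPKM of an isoenzyme family (vertical axes, from 0) taken by Fbp2, by Ldhb, by each of Pfkl, Pfkm and Pfkp, and by Pgam2, at each ischemia time in min. Open circles are kidneys, lines join the means and bars are the SD of 3 kidneys. The Fbp2 share steps up between 26 and 28 min, from 8.37% to 18.2%, and the Pgam2 share steps down, from 17% to 7.73%.

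The early and the late step of the series differed for 13 of the 33 genes, by a test of the change from 26 to 28 min minus the change from 0 to 16 min. Of these, 11 were lower in the late step, namely Pfkm, Pklr, Gpi1, Tpi1, Gapdh, Pgk1, Pgam1, Eno1, Ldha, Ldhb and Khk, and Eno3 and Slc16a1 were higher (4.52% and 4.9% of all genes). For Eno1 the early change was a rise of 0.41 on the log2 scale and the late change -0.12, a difference of -0.53 (adjusted p 0.000551 by limma). The late change was not called, and its sign depends on the scaling. It was 0.10 without quantile normalization and 0.06 with FPKM rescaled to TPM. The difference was called there too, at -0.44 and -0.49. For Fbp1 the early and late changes were both falls, of 0.86 and 0.75, and for G6pc they were 0.04 and -1.77, with neither difference called. The count was 7 without replicate 2 of the 0 min group, 7 without replicate 2 of the 26 min group and 8 without replicate 3 of the 0 min group.

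**Figure D5:**
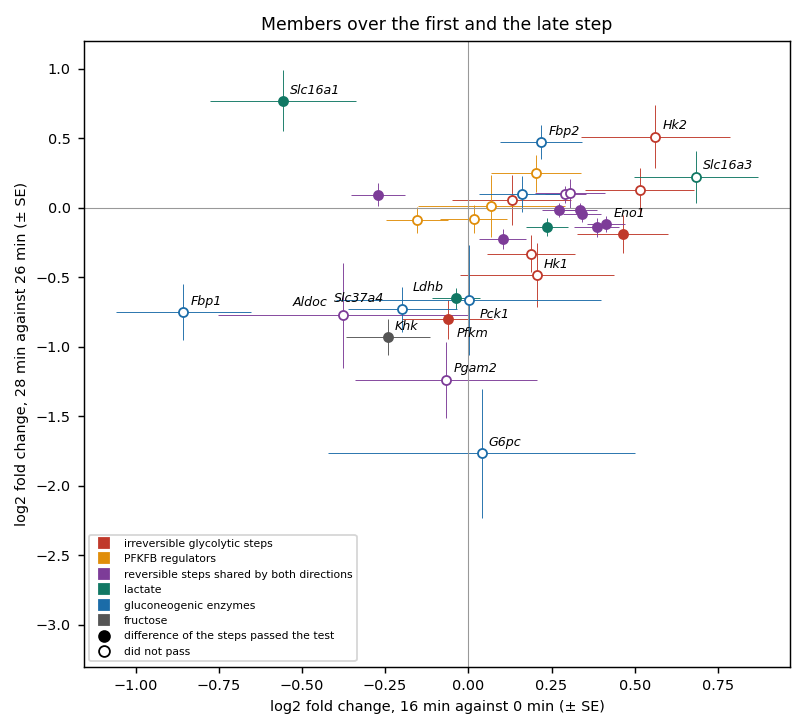
Log2 fold change from 0 to 16 min (horizontal) against that from 26 to 28 min (vertical) for the 33 genes, with SE bars and n = 3 kidneys a group, colored by role. Filled points passed the test of the difference of the steps. Most shared reversible steps lie right of 0 and near or below 0 vertically, and Pgam2 (-1.24) and G6pc (-1.77) lie lowest.

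Other genes of the same metabolism, from lists chosen for their place in the pathway, gave the surroundings. At 28 min 24.5% of all genes rose and 23.6% fell. Of 8 other gluconeogenesis genes, 4 fell and 1 rose at that time. Pcx, pyruvate carboxylase, had 131, 142 and 138 FPKM at 0 min and 55.4, 58.2 and 52.7 at 28 min, and fell by 1.30 on the log2 scale (adjusted p 7.85e-07 by limma). Of 4 fructose and polyol genes, 2 fell at 28 min (23.6% of all genes), the fructose carrier Slc2a5 (-1.67) and sorbitol dehydrogenase Sord (-1.56).

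Of 6 other lactate genes, 4 fell at 28 min and 5 at 30 min (23.6% and 25.4% of all genes), and none rose. Slc5a8, a sodium-coupled lactate carrier of the proximal tubule, had 69.7, 65.1 and 47.1 FPKM at 0 min and 6.14, 7 and 7.25 at 28 min, a fall of 3.05 on the log2 scale (adjusted p 1.04e-08 by limma). Of 9 other glycolysis genes, 3 rose and 2 fell at 28 min, shares near the 24.5% and 23.6% of all genes, among them the hexokinase-like Hkdc1 (0.47) and galactose mutarotase Galm (-1.06). Of 5 glucose carriers, Slc2a1 (GLUT1) rose by 0.59 at 28 min and 0.91 at 30 min, and Slc2a2 (GLUT2) was 0.45 higher at 28 min and then changed by -0.62 against 0 min at 30 min, a change of -1.07 between them (adjusted p 0.000635).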

How the data were processed

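Gene expression was measured by RNA sequencing of left kidneys from 27 samples, 3 at each of 9 ischemia times, grouped by the sample titles. The authors deposited 1 table of FPKM values per gene and kidney, rounded to 2 decimals; the study's text names the unit RPKM. The submitters' processing notes name Bowtie2, RSEM and DESeq2 and the build GRCm38.p6, with no role, and the annotation is not given in the sources used here. FPKM carries no read depth, so no counting interval was formed. Summed FPKM per kidney was 512453 to 554036.

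Genes above 0 FPKM in at least 3 kidneys were kept, log2(FPKM + 1) was quantile normalized as a log-scale value over the 27 kidneys, and limma 3.58.1 in R 4.3.3 was fitted with 1 mean for each time, after the fit had been tested on simulated data. Adjusted p under 0.05 counted as passing, and a DEG also had an absolute log2 fold change above 1, the study's limits. The methods describe 1 left kidney a mouse, and the labels give replicate numbers only. Members were named by the rule that all 33 are accounted for, with full values for those that were DEGs in at least 1 comparison and for their isoenzymes. The members, lists and tests were chosen with earlier results of these data known. Alternatives changed the pseudocount to 0.1, the scaling, the filter, the variance prior, the replicate block, the kidneys and the groups fitted. Promoter windows and gene positions were from RefSeq, GRCm38.p6, and transcript stretches from GENCODE vM21. No column of the table was left unmapped. Values of 1 gene of the pathway lists are not reported here.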

Additional observations from a re-analysis of the deposited data

Results flagged for a closer look

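For 13 of the 33 genes the change from 26 to 28 min differed from the change from 0 to 16 min, by the test of that difference in the limma fit. The difference, late minus early on the log2 scale, was -0.74 for Pfkm (adjusted p 0.0213), -0.65 for Pklr (0.0396), -0.36 for Gpi1 (0.00466), -0.33 for Tpi1 (0.043) and -0.53 for Gapdh (0.00217). It was -0.39 for Pgk1 (0.00539), -0.29 for Pgam1 (0.0178), -0.53 for Eno1 (0.000551) and 0.37 for Eno3 (0.0472). Among the lactate genes it was -0.37 for Ldha (0.0124), -0.62 for Ldhb (0.00118) and 1.32 for Slc16a1 (0.0114), and for Khk it was -0.69 (0.02). The Eno3 call was lost under both other scalings and the Pgam1 call without quantile normalization.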

How the results depend on the processing

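No fold change of a named DEG reversed: of 320 alternative values over 21 results, 303 kept their side of the threshold and 17 did not. The Aldoc call at 26 min ran from -0.94 to -1.24. With a pseudocount of 0.1, DEGs numbered 1 at 16, 18 and 20 min and 2 at 22 and 24 min. Without quantile normalization they numbered 0 at 26 min. With FPKM rescaled to TPM they numbered 1 at 16, 20, 22 and 24 min and 2 for the difference of the steps, as with the filter at 1 FPKM. With the compared groups fitted alone, 0 genes passed at 16 min and 0 from 28 to 30 min, and DEGs numbered 1 at 26 min and 1 from 26 to 28 min. Leaving out each kidney in turn, passing genes numbered 8 to 15 at 16 min, 6 to 10 from 26 to 28 min, 3 to 11 from 28 to 30 min and 7 to 14 for the difference of the steps. DEGs then numbered 0 to 1 at 16, 22, 24 and 26 min, 1 to 3 from 26 to 28 min and 1 to 3 for the difference of the steps. Chosen after seeing the data, leaving out 5 kidneys with the fat gene Adipoq above 1 FPKM gave 7 at 20 min, where 1 kidney remained and was assumed to vary like the other groups. Replicate numbers did not pair the kidneys (mean correlation of same-numbered deviations 0.00868, 10 of 27 closest to their own number), and with the replicate block 25 genes passed at 28 min and 8 from 28 to 30 min. The share of all genes passing is not given here for fits of the compared groups alone or with a kidney left out. The causes were not tested.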

Other observations

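The pentose phosphate pathway, which branches off at glucose 6-phosphate and makes NADPH and ribose, was higher after ischemia. Of its 7 genes, 4 rose at 16 min and 6 at 28 min by the limma test (9.43% and 24.5% of all genes), with a median log2 fold change of 1.25 at 28 min. Pgd, phosphogluconate dehydrogenase, had 52.0, 55.2 and 60.9 FPKM at 0 min, 145, 110 and 170 at 26 min and 213, 195 and 216 at 28 min. The 3 groups did not overlap, and Pgd rose by 1.87 at 28 min (SE 0.15, adjusted p 9.44e-09). G6pdx, which makes the committed step, rose by 1.25, transketolase Tkt by 1.33 and transaldolase Taldo1 by 1.28 at 28 min, so the 4 DEGs span both arms of the pathway. At 30 min 5 genes rose and Rpe, ribulose phosphate epimerase, fell by 0.26.

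Of 13 genes for pyruvate entry to mitochondria and its regulation, 10 fell at 28 min (23.6% of all genes), among them the pyruvate carrier subunit Mpc1 (-0.76) and the dehydrogenase kinase Pdk2 (-1.28). The list holds carrier and dehydrogenase complex genes as well as the Pdk kinases and Pdp phosphatases that regulate the complex. The count therefore gives no direction of pyruvate entry. Pdk4, another kinase of that complex, had 10.8, 7.76 and 13.3 FPKM at 28 min and 15.6, 26.3 and 37.0 at 30 min, and rose by 1.23 between them (adjusted p 0.0224 by limma). Of 8 regulators, Myc rose by 2.42 at 28 min and the coactivator Ppargc1a fell by 1.17. Hnf4a, a factor of the proximal tubule, changed by -0.08 at 28 min (adjusted p 0.537) and fell by 0.61 at 30 min, and Hif1a rose by 0.32 at 30 min.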
